A study of Mus musculus with 8 samples.

Results

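The mitochondrial carrier family SLC25 was measured in hearts of mice that overexpress Plin5 and in control hearts. Members were all genes with a symbol made of Slc25a and a number, each read from a row of the array that GEO's platform annotation assigns to exactly 1 gene symbol. This gave 46 of the 19938 genes tested. They came from 50 rows, and where a gene had several rows the one with the highest mean over the 8 hearts was used. The hearts came from 4 MHC-Plin5 mice and 4 control mice. All were male, of the c57/bl background, 12 weeks old and labelled as fasted. The Plin5 product, perilipin 5, coats lipid droplets, and the series title places its overexpression in cardiomyocytes, the contracting cells of the heart. The labels do not spell out the prefix MHC or describe the control genotype further. RNA was hybridised to Affymetrix whole-transcript arrays, and the values are log2 levels that the authors normalised by RMA. A log2 difference is always MHC-Plin5 minus control, and a gene was called when its limma p, adjusted by Benjamini-Hochberg over all 19938 genes, was under 0.05.

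SLC25 proteins sit mostly in the inner mitochondrial membrane, which is impermeable to most charged metabolites. Each carrier exchanges or imports a small set of substrates, such as ADP for ATP, acylcarnitine for carnitine, phosphate, amino acids or the dicarboxylates of the citric acid cycle. The heart depends on them heavily, because nearly all of its ATP is made inside mitochondria from imported fuel and is then exported to the contractile apparatus. A few members lie elsewhere, such as Slc25a17 in peroxisomes and Slc25a46 in the outer mitochondrial membrane.

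The labels were checked on Plin5, whose log2 level was 12.08 to 12.69 in MHC-Plin5 hearts and 8.58 to 9.04 in controls, an 11.7-fold difference. The median over a whole array was highest in control 2 (6.24) and MHC-Plin5 4 (6.18) and ran from 5.99 to 6.04 in the others. All 7 cardiomyocyte markers were present, and 0 of them were called, but all 7 lay below 0 with a median log2 difference of -0.11. Their log2 levels summed to 94.15 to 94.49 in control and 92.54 to 94.25 in MHC-Plin5 hearts. No called gene was found among the markers of atrial cardiomyocytes (0 of 4 measured), adipocytes (0 of 6), erythroid cells (0 of 3), endothelium (0 of 5), fibroblasts (0 of 5), macrophages (0 of 5) or smooth muscle (0 of 5). At an unadjusted limma p under 0.05 there was 1 atrial, 1 adipocyte and 1 fibroblast marker, and 0 in the other lists of markers, beside 16.6% of all genes. Several of these other lists nevertheless lay on 1 side of 0 as well. All 4 atrial markers were above 0 (median log2 difference 0.87), as were all 5 fibroblast (0.30) and all 5 macrophage markers (0.30), and all 6 adipocyte markers were below 0 (-0.35). Their summed levels overlapped between the groups, with 31.08 to 46.42 in control and 34.27 to 45.73 in MHC-Plin5 hearts for atrial, 45.73 to 48.10 and 46.74 to 49.83 for fibroblast, and 39.93 to 42.01 and 40.89 to 44.39 for macrophage markers. Among the adipocyte markers, control 4 had the highest level of all 8 hearts in Adipoq (6.97), Plin1 (6.97) and Cidec (7.84). It was the lowest control in Fabp4 (11.67) and Cidea (8.48). In size, the fibroblast, macrophage and adipocyte medians exceeded the differences of the 26 members under 0.2. The atrial median exceeded that of every uncalled member except Slc25a42 (log2 difference -0.89). The part of these marker shifts in the differences of the members was not tested. Fewer cells of a type and less RNA per cell cannot be told apart in whole hearts. With 4 arrays in a group, the number of arrays limits the precision.

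In the family, 1 member rose and 2 fell. Slc25a33, which carries pyrimidine nucleotides into mitochondria, was 2.36-fold higher in MHC-Plin5 hearts. Slc25a34, a member whose substrate is not settled, was 2.12-fold lower, and Slc25a20, the carnitine and acylcarnitine carrier, was 1.67-fold lower. Of all genes tested, 2.08% were called higher and 1.17% lower, against 2.17% and 4.35% of the members, so the share of risers was near the background and that of fallers rested on 2 genes. Together 3.25% of all genes were called in either direction, against 6.52% of the members. The 43 other members were not called.

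**Figure D1:**
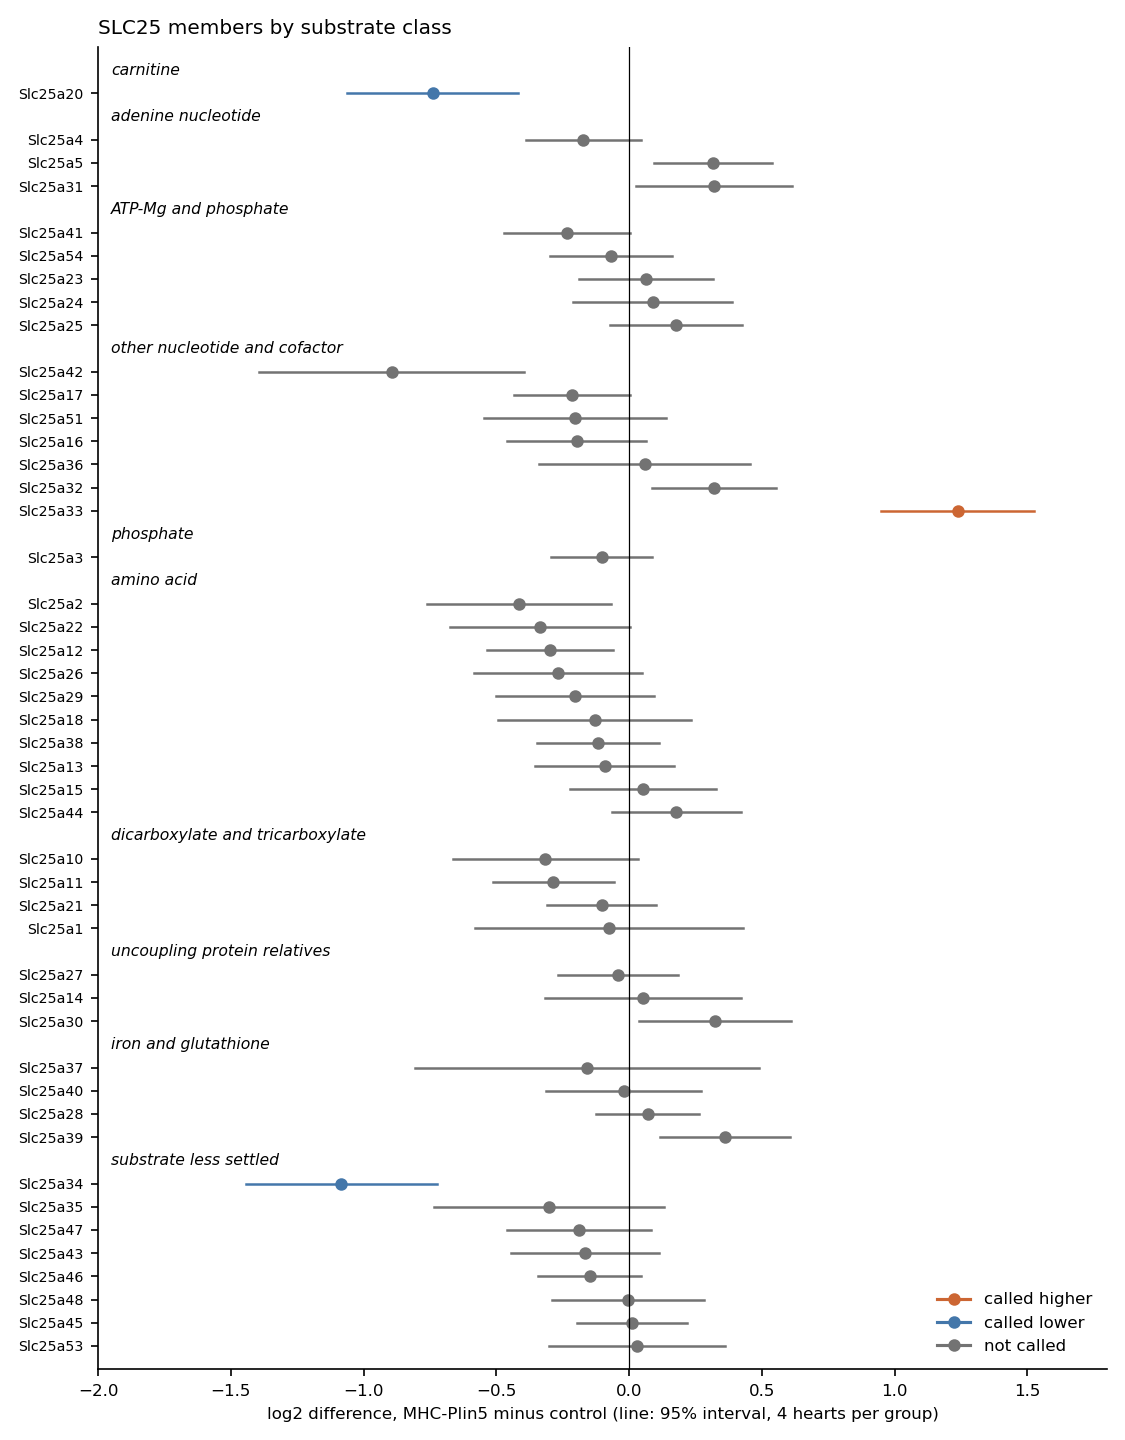
Log2 difference (MHC-Plin5 minus control, x axis) of each of the 46 SLC25 members, grouped by substrate class, with the 95% interval from limma as a line (4 hearts per group). Slc25a33 stands to the right at 1.24, and Slc25a34 and Slc25a20 to the left at -1.08 and -0.74, while 41 of 46 members differ by less than 0.4.

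Most members moved little. The difference was under 0.2 in size in 26 members and under 0.4 in 41. Across the family 30 differences lay below 0 and 16 above, that is 65.2% below 0 beside 57.5% of all genes tested. The median difference was -0.10 over the members and -0.03 over all genes. With only genes at a mean of at least 7 kept, it was -0.11 over 32 members, 20 of them below 0, and 0.02 over 8899 genes. The control and MHC-Plin5 hearts did not overlap in 11 members (23.9%), 5 of them higher and 6 lower in MHC-Plin5, beside 11.2% of all genes. At an unadjusted limma p under 0.05 there were 12 members (26.1%), 6 in each direction, beside 16.6% of all genes. Mean log2 levels of the members ran from 3.96 to 13.68, and 41 of 46 had a mean of at least 5, as did 15589 of all 19938 genes. A mean of at least 7 was reached by 32 members and by 8899 of all genes, so the members tended to be brighter than the background. The part of level in the shares above was not tested.

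The nucleotide carriers held the widest spread of differences. Slc25a33 had log2 levels of 6.50, 6.18, 6.59 and 6.42 in the control hearts and of 7.47, 7.83, 7.87 and 7.48 in the MHC-Plin5 hearts. Values per heart always stand in the order of the heart numbers, 1 to 4. Every MHC-Plin5 heart lay above every control heart, with a gap between the groups wider than the spread within either. The group levels were 6.42 ± 0.17 and 7.66 ± 0.22 (SD, n = 4 each), a log2 difference of 1.24 (SE 0.13, limma adjusted p = 0.000803). The call held with each heart left out, where the difference ranged from 1.16 to 1.30.

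Slc25a36, the other pyrimidine nucleotide carrier of the family, was not called. Its levels were 10.44, 10.22, 10.07 and 9.82 in the control hearts and 10.10, 10.64, 10.25 and 9.79 in the MHC-Plin5 hearts, and the groups overlapped fully. The log2 difference was 0.06 with a 95% interval from -0.34 to 0.45 (limma adjusted p = 0.914). A second row annotated as Slc25a36 had a difference of -0.07, again with overlapping groups.

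The promoters of the called members are shown because the data bear on their transcripts. They are the 250 bases before the annotated RefSeq start in GRCm38.p6, 5′ to 3′ on the strand of the gene, and capitals mark a match to a searched motif on either strand.
Slc25a33: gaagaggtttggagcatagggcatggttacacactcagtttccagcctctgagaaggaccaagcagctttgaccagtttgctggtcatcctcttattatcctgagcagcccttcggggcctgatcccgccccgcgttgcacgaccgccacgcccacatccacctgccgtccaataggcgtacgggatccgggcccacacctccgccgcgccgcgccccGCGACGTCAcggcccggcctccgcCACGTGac
Slc25a34: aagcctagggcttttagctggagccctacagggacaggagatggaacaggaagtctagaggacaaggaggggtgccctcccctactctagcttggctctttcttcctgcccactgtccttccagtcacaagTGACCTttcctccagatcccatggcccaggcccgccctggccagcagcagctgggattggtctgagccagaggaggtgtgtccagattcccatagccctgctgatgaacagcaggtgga
Slc25a20: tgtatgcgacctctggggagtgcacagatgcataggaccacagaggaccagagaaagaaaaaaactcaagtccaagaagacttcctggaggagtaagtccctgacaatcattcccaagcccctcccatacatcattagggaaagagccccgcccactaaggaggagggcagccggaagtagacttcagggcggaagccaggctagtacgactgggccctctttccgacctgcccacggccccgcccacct
The Slc25a33 promoter lies at chr4:149774268-149774517 on the minus strand, that of Slc25a34 at chr4:141623835-141624084 on the minus strand and that of Slc25a20 at chr9:108661886-108662135 on the plus strand.

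Motifs of 4 kinds were searched on both strands of these windows, chosen with the values known. They were the E-box CACGTG, to which MYC and related factors bind, the composite element TGATGNAA of ATF4, the antioxidant element TGACNNNGC of NRF2 and the nuclear receptor half-site AGGTCA. The last pair can overlap each other, since both can hold the letters TGAC. The Slc25a33 window held an E-box from 8 to 3 bases before the start and an antioxidant element, GCGACGTCA as printed, from 32 to 24 bases before it. In Slc25a34 a half-site, TGACCT as printed, lay from 119 to 114 bases before the start, and the Slc25a20 window held no match. Among all 32851 promoter windows of this length, 6.02% held the E-box, 10.2% the antioxidant element, 14.0% the half-site and 3.45% the ATF4 element. A promoter was listed for 36 of the 46 members, of which 7 held the E-box, 7 the antioxidant element, 4 the half-site and 0 the ATF4 element. A member counted when any of its windows matched, while the percentages are per window, so these counts cannot be compared with them directly. A match describes letters only.

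Slc25a42 imports coenzyme A, the carrier of acyl groups in fatty acid oxidation and the citric acid cycle. Its log2 levels were 9.45, 9.15, 9.24 and 8.98 in the control hearts and 8.37, 8.08, 7.76 and 9.03 in the MHC-Plin5 hearts. In 3 MHC-Plin5 hearts the level was below every control heart, while MHC-Plin5 4 lay within the control range. The log2 difference was -0.89 (SE 0.23, 95% interval -1.39 to -0.40), and the limma adjusted p of 0.0596 missed the threshold. Without MHC-Plin5 4 it was -1.13 with an adjusted p of 0.00356.

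The other carriers of cofactors differed less. Slc25a32, which brings folate and flavin into mitochondria, had levels of 7.91 to 8.06 in control and 8.09 to 8.47 in MHC-Plin5 hearts. The groups did not overlap, but MHC-Plin5 4 at 8.09 lay next to control 4 at 8.06, and the log2 difference of 0.32 was not called (SE 0.11, limma adjusted p = 0.143). Slc25a17, the peroxisomal carrier of coenzyme A and related cofactors, had 8.49 to 8.52 against 8.10 to 8.44, a difference of -0.22 (limma adjusted p = 0.311). Slc25a16, linked to coenzyme A supply, and Slc25a51, the NAD+ carrier, had log2 differences of -0.20 each, and their groups overlapped.

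**Figure D2:**
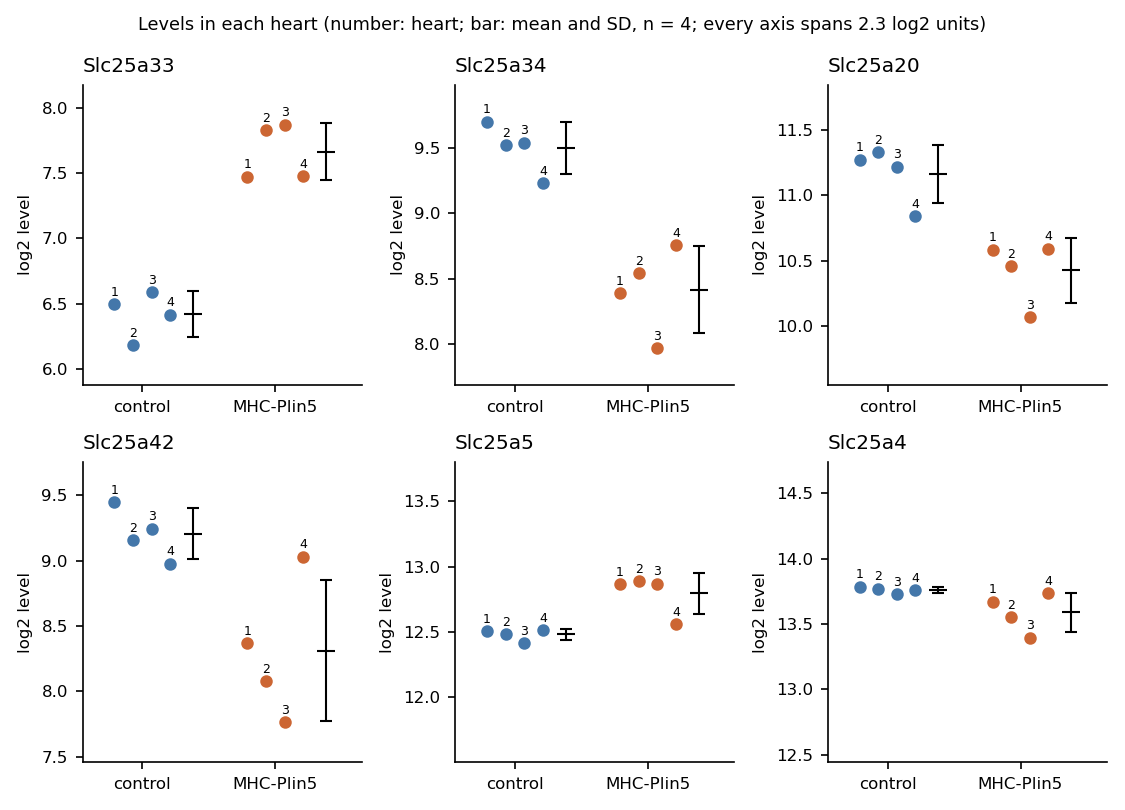
Log2 level (y axis, every axis spanning the same range) of 6 carriers in each heart, with the heart's number above each point and the mean ± SD beside them (n = 4 per group). Slc25a33, Slc25a34 and Slc25a20 separate the groups, MHC-Plin5 4 sits among the controls for Slc25a42, all MHC-Plin5 hearts lie above the controls for Slc25a5, and for Slc25a4 all but MHC-Plin5 4 lie below them.

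ADP/ATP exchange, the step that delivers ATP to the cytosol, is carried by Slc25a4 (ANT1, the main form of heart and muscle) and Slc25a5 (ANT2, typical of proliferating cells). Slc25a4 had log2 levels of 13.79, 13.77, 13.73 and 13.76 in the control hearts and 13.67, 13.55, 13.40 and 13.73 in the MHC-Plin5 hearts. Only MHC-Plin5 4 reached the control range, and the log2 difference of -0.17 was not called (95% interval -0.39 to 0.04, limma adjusted p = 0.428). Slc25a5 had 12.51, 12.48, 12.42 and 12.51 in the control hearts and 12.86, 12.89, 12.87 and 12.56 in the MHC-Plin5 hearts. Here all MHC-Plin5 hearts lay above all controls, MHC-Plin5 4 by the smallest margin, and the log2 difference of 0.32 (SE 0.10, limma adjusted p = 0.132) was not called. The 2 other rows annotated as Slc25a5 had differences of 0.33 each with no overlap, and near-identical gene copies may share signal among the 3 rows. Without MHC-Plin5 4 the Slc25a5 difference was 0.39 (limma adjusted p = 0.0286). Slc25a31, an ADP/ATP carrier known from testis, was dim at a mean of 4.01, with a log2 difference of 0.32 (adjusted p = 0.255) and overlapping groups.

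Carriers that share a substrate were compared within each heart, so that shifts common to a whole array cancel. There were 6 pairs, chosen with the values known, and each was tested by exact permutation of the 8 hearts (two-sided, smallest possible p 0.0286). The change of Slc25a5 exceeded that of Slc25a4 by 0.49 on the log2 scale (exact p = 0.0286, 0.0857 adjusted over the 6 pairs). Against the control mean of this within-heart difference, the MHC-Plin5 hearts stood at 0.47, 0.62, 0.75 and 0.11 and the controls between -0.03 and 0.04. For Slc25a33 and Slc25a36 the change differed by 1.18 (exact p = 0.0286, 0.0857 adjusted), with 0.91 to 1.40 in MHC-Plin5 hearts and -0.32 to 0.31 in controls. Both pairs separated the groups completely. With 6 pairs, an adjusted p under 0.05 would have needed at least 4 pairs at the smallest possible p, so the adjusted values say little about either pair.

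The remaining 4 pairs overlapped between the groups. The changes differed by -0.20 for the aspartate/glutamate carriers Slc25a12 and Slc25a13 (exact p = 0.114) and by -0.20 for the glutamate carriers Slc25a22 and Slc25a18 (exact p = 0.4). They differed by -0.23 for the iron carriers Slc25a37 and Slc25a28 (exact p = 0.657) and by 0.38 for the glutathione carriers Slc25a39 and Slc25a40 (exact p = 0.2). Adjusted over the 6 pairs, these p-values ran from 0.229 to 0.657. The control hearts alone spread by an SD of up to 0.40 in these 4 differences.

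**Figure D3:**
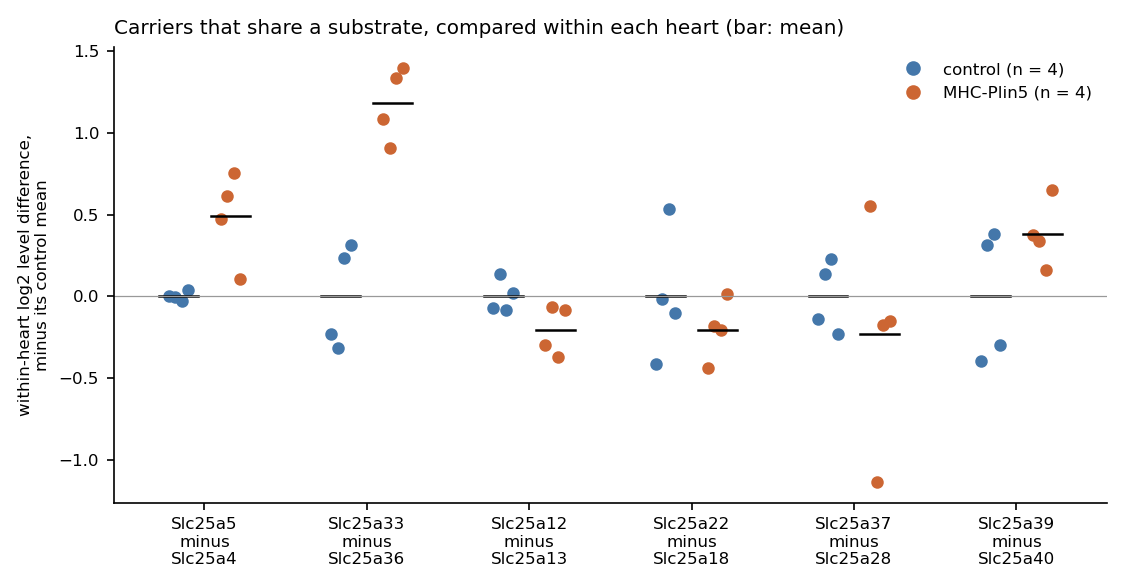
Within-heart difference in log2 level between carriers that share a substrate, minus its mean in the control hearts (y axis), for 6 pairs, with 1 point per heart and the group mean as a bar (n = 4 per group). The Slc25a5 and Slc25a4 pair and the Slc25a33 and Slc25a36 pair separate the groups, and the other 4 pairs overlap.

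Slc25a20 exchanges acylcarnitine for carnitine and thereby admits long-chain fatty acids to oxidation. Its log2 levels were 11.27, 11.33, 11.22 and 10.84 in the control hearts and 10.59, 10.46, 10.07 and 10.59 in the MHC-Plin5 hearts. The groups did not overlap, and control 4 was the control closest to the MHC-Plin5 hearts. The log2 difference was -0.74 (SE 0.15, limma adjusted p = 0.0227). Leaving out control 1, 2 or 3 or MHC-Plin5 2 ended the call, with limma adjusted p-values from 0.0681 to 0.0832.

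The proteins that work beside Slc25a20 in the carnitine shuttle gave 0 called genes of 4 measured, by limma with adjustment over all genes. Of the 4, 3 had an unadjusted limma p under 0.05, beside 16.6% of all genes tested. Cpt1b was also listed but had no row with exactly 1 gene symbol, so it was not measured here. Cpt2, which converts acylcarnitine back to acyl-CoA inside the mitochondrion, had a log2 difference of -0.54 (limma adjusted p = 0.0806), with 11.50 to 11.95 in control and 10.89 to 11.50 in MHC-Plin5 hearts, groups that just overlapped. Crat, the carnitine acetyltransferase, had -0.40 (limma adjusted p = 0.0764) and groups that did not overlap. Slc22a5, the carnitine transporter of the plasma membrane, had -0.27, and Cpt1a, which makes acylcarnitine at the outer membrane, had -0.17. All 4 differences lay below 0, as did 57.5% of those of all genes, with a median of -0.34. Over the 8899 genes with a mean of at least 7, as all 4 had, the median was 0.02.

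Slc25a34 had log2 levels of 9.70, 9.52, 9.54 and 9.23 in the control hearts and 8.39, 8.54, 7.97 and 8.76 in the MHC-Plin5 hearts. Every MHC-Plin5 heart was below every control heart. The group levels were 9.50 ± 0.20 and 8.41 ± 0.33 (SD, n = 4 each), a log2 difference of -1.08 (SE 0.16, limma adjusted p = 0.00567). The call held with each heart left out, where the difference ranged from -1.20 to -0.93. Slc25a35, its close relative, had levels of 8.23 to 8.44 in control and of 8.30, 7.45, 7.84 and 8.51 in the MHC-Plin5 hearts. MHC-Plin5 2 and 3 lay below the controls and MHC-Plin5 4 above them, and the log2 difference of -0.30 was not called (95% interval -0.73 to 0.13, limma adjusted p = 0.498).

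The other 6 members without a settled class had log2 differences from -0.19 to 0.03, and 0 of them were called. They were Slc25a43, Slc25a45, Slc25a46, Slc25a47, Slc25a48 and Slc25a53. Slc25a46, which acts in mitochondrial dynamics, had 10.08 to 10.25 in control and 9.96 to 10.09 in MHC-Plin5 hearts.

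The phosphate carrier Slc25a3, which supplies phosphate to ATP synthase, had log2 levels of 12.68, 12.66, 12.64 and 12.66 in the control hearts and 12.59, 12.50, 12.48 and 12.63 in the MHC-Plin5 hearts. All MHC-Plin5 hearts were below all controls, but by little. The log2 difference was -0.10 with a 95% interval from -0.29 to 0.09 (limma adjusted p = 0.617). In the class of ATP-Mg/phosphate carriers, Slc25a23, Slc25a24, Slc25a25, Slc25a41 and Slc25a54 had differences from -0.23 to 0.18, and 0 of 5 were called. Slc25a24 stood at 7.90 in MHC-Plin5 3 and between 7.28 and 7.42 in the other 7 hearts.

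Creatine kinases, ATP synthase subunits and adenylate kinase use the ATP and phosphate that these carriers move, and 0 of 5 measured genes of that list were called by limma with adjustment over all genes, with 0 at an unadjusted p under 0.05. Their differences ran from -0.43 for Ak4 to -0.04 for Atp5b, with a median of -0.19. The channels Vdac1, Vdac2 and Vdac3 of the outer membrane had differences of -0.03, 0.00 and 0.07. Mpc1, a subunit of the pyruvate carrier, had -0.07. In the list of other mitochondrial membrane transport 0 of 13 measured genes were called by limma. Only Sfxn1 (0.30) and Sfxn4 (-0.37) had an unadjusted limma p under 0.05, a share near the 16.6% of all genes. The other measured sideroflexins, Sfxn2 (-0.12), Sfxn3 (0.13) and Sfxn5 (-0.08), did not. The list median was -0.03, as over all genes.

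Among the amino acid carriers 0 of 10 were called. The aspartate/glutamate carriers Slc25a12 and Slc25a13 and the oxoglutarate/malate carrier Slc25a11 together run the malate-aspartate shuttle, which brings reducing equivalents from the cytosol into mitochondria. Slc25a12 had log2 levels of 12.38, 12.41, 12.33 and 12.35 in the control hearts and 12.25, 11.94, 11.88 and 12.21 in the MHC-Plin5 hearts. Slc25a11 had 12.29, 12.37, 12.34 and 12.43 in the control hearts and 12.13, 12.06, 11.86 and 12.24 in the MHC-Plin5 hearts. In both genes every MHC-Plin5 heart was below every control, and neither was called, with log2 differences of -0.30 (SE 0.11, limma adjusted p = 0.184) and -0.28 (SE 0.10, limma adjusted p = 0.181). Slc25a13 had 10.00, 9.83, 9.96 and 9.88 in the control hearts and 10.10, 9.56, 9.79 and 9.85 in the MHC-Plin5 hearts. Its groups overlapped, with a log2 difference of -0.09 (95% interval -0.35 to 0.17).

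The 4 enzymes of the same shuttle were not called either. Mdh2 and Got2, the mitochondrial malate dehydrogenase and aspartate aminotransferase, had log2 differences of -0.26 (limma adjusted p = 0.179) and -0.24 (limma adjusted p = 0.189). Both had groups without overlap, beside 11.2% of all genes, and an unadjusted limma p under 0.05, beside 16.6% of all genes. The cytosolic Mdh1 and Got1 had -0.23 and -0.05. The median over the 4 was -0.24.

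Slc25a2, an ornithine carrier, was dim at a mean of 4.84 and had the largest uncalled difference after Slc25a42. Its levels were 5.03, 5.51, 4.72 and 4.92 in the control hearts and 4.50, 4.75, 4.51 and 4.76 in the MHC-Plin5 hearts, with control 3 among the MHC-Plin5 hearts. The log2 difference of -0.42 had a limma adjusted p of 0.205. Slc25a15, the main ornithine carrier, had 0.05. The glutamate carriers Slc25a22 and Slc25a18 had -0.33 and -0.13, and Slc25a26, which imports the methyl donor S-adenosylmethionine, had -0.27. Slc25a29 for basic amino acids had -0.20 and Slc25a38, the glycine importer that serves haem synthesis, had -0.12. Each of these 6 had overlapping groups.

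Slc25a44 imports branched-chain amino acids and had a log2 difference of 0.18 (95% interval -0.06 to 0.42, limma adjusted p = 0.469), with 8.08 to 8.29 in control and 8.17 to 8.60 in MHC-Plin5 hearts. The enzymes that break these amino acids down stood on the other side of 0. Of 6 measured, 2 fell and 0 rose by limma, beside 1.17% and 2.08% of all genes, and the median was -0.54. Ppm1k, the phosphatase that activates the branched-chain dehydrogenase, averaged 10.36 ± 0.20 (SD, n = 4) in control hearts against 9.07 ± 0.62 (SD, n = 4) with the transgene, a difference of -1.28 on the log2 scale (limma adjusted p = 0.0225). Bckdhb, a subunit of that dehydrogenase, had -0.84 (limma adjusted p = 0.0399). The remaining genes were not called, with -0.56 for Bckdha, -0.53 for Dbt, -0.47 for Bcat2 and -0.22 for the inhibiting kinase Bckdk. Leaving out control 1, 2 or 3 or MHC-Plin5 2 or 3 ended the call of Ppm1k, and leaving out any control or MHC-Plin5 2 or 3 ended that of Bckdhb.

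All 4 carriers of dicarboxylates and tricarboxylates had log2 differences below 0, as did 57.5% of all genes, and 0 of 4 were called. Over the 8899 genes with a mean of at least 7, as all of these but Slc25a21 had, the median difference was 0.02. Beside Slc25a11, the malate and succinate carrier Slc25a10 had 8.07 to 8.14 in control and 7.90, 7.55, 7.42 and 8.24 in the MHC-Plin5 hearts. MHC-Plin5 4 lay above the controls and the other 3 below, giving a log2 difference of -0.32 (limma adjusted p = 0.356). Slc25a21, the oxoadipate carrier, had -0.10, and the citrate carrier Slc25a1 had -0.08 with 9.50 in control 4 and 8.38 to 9.03 in the other 7 hearts.

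Mitochondrial folate enzymes use the folate that Slc25a32 brings in. Of 5 measured, 3 rose and 0 fell by limma, beside 2.08% and 1.17% of all genes, with a median log2 difference of 0.70. Mthfd2, a dehydrogenase and cyclohydrolase of the pathway, had 4.37, Aldh1l2, which oxidises formyl folate, had 1.56 (limma adjusted p = 0.00144), and Shmt2, which splits serine, had 0.70 (limma adjusted p = 0.00526). Mthfd1l and Mthfd2l, with 0.38 and -0.21, were not called. The difference of 0.32 in Slc25a32 was below that of each called enzyme. Its lowest MHC-Plin5 value, in heart 4, fell in the same heart as the lowest MHC-Plin5 values of Mthfd2 (10.25) and Shmt2 (9.58), while Aldh1l2 was highest there (9.04).

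**Figure D4:**
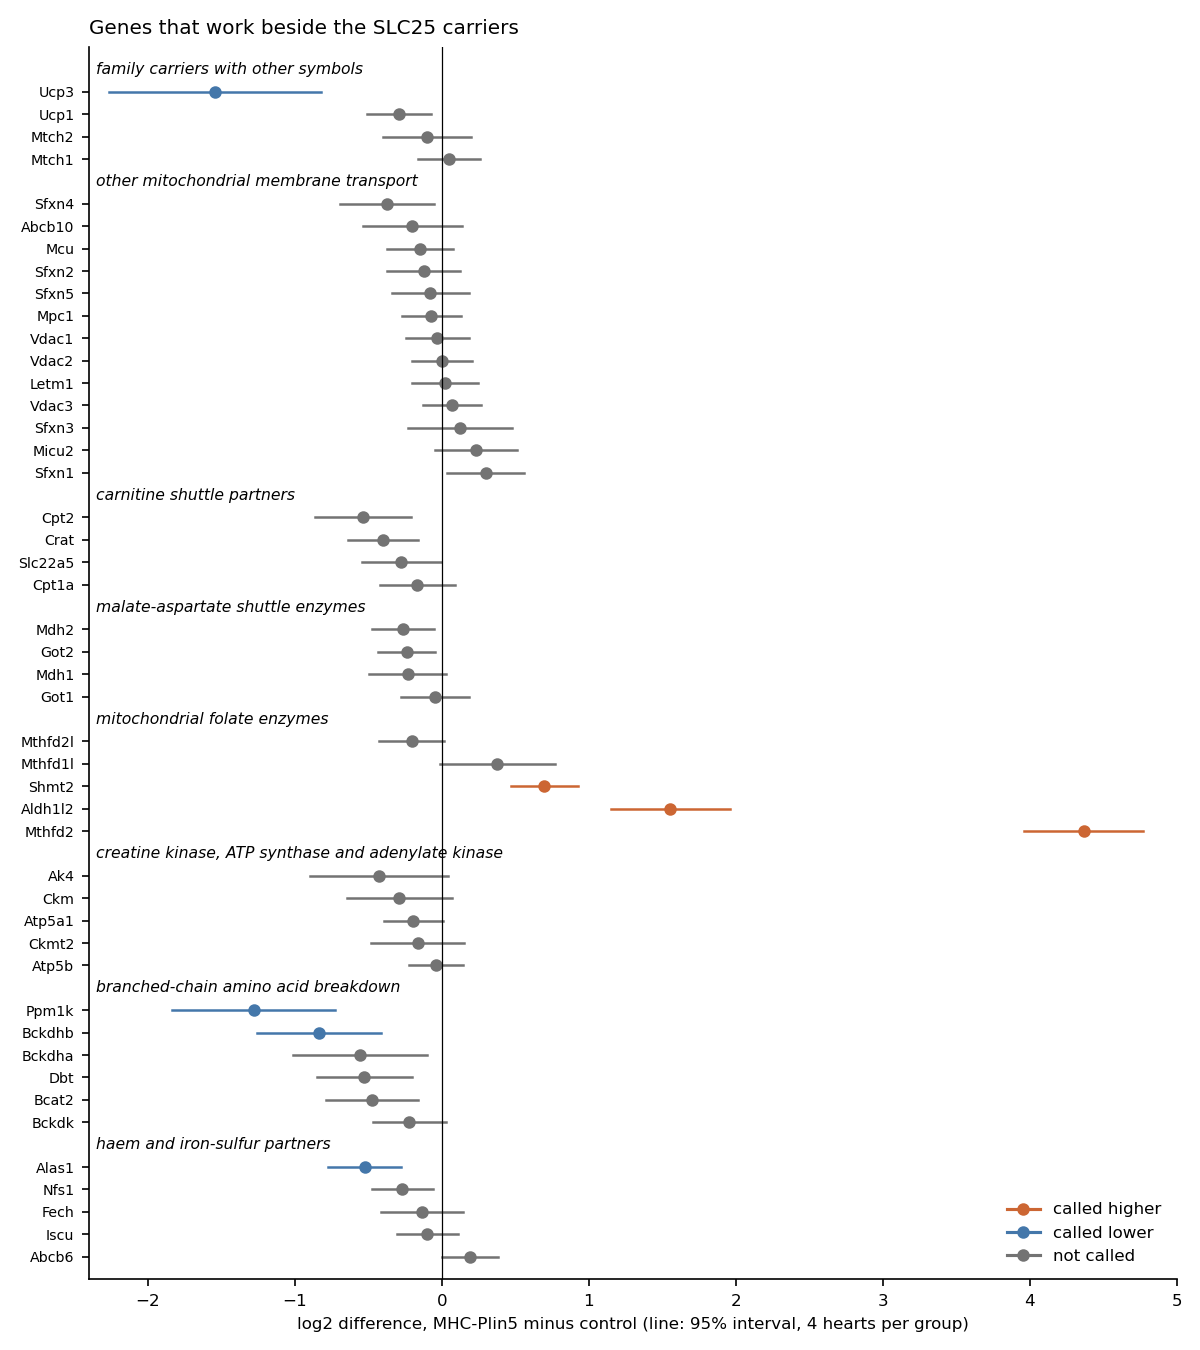
Log2 difference (MHC-Plin5 minus control, x axis) of genes that work beside the carriers, grouped by list, with the 95% interval from limma as a line (4 hearts per group). Mthfd2, Aldh1l2 and Shmt2 lie to the right of 0, Ucp3, Ppm1k, Bckdhb and Alas1 to the left, and the other genes were not called.

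Slc25a39 and Slc25a40 import glutathione, the thiol that protects mitochondria from oxidants. Slc25a39 had log2 levels of 10.52, 10.78, 10.77 and 10.48 in the control hearts and 11.00, 10.86, 10.97 and 11.18 in the MHC-Plin5 hearts. All MHC-Plin5 hearts lay above all controls, and MHC-Plin5 4 was the highest of them. The log2 difference was 0.36 (SE 0.11), not called with a limma adjusted p of 0.118, although it was called after each array was shifted to the same median (0.40, adjusted p = 0.0428). Slc25a40 had -0.02 and -0.09 in its pair of rows.

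The mitoferrins Slc25a37 and Slc25a28 import iron for haem and iron-sulfur clusters. Slc25a37 spread most of all members among the MHC-Plin5 hearts, at 9.30, 7.54, 8.55 and 8.72 in the MHC-Plin5 hearts against 8.55, 8.88, 8.89 and 8.41 in the control hearts. The SD was 0.73 and 0.24, and the log2 difference of -0.16 had a 95% interval from -0.81 to 0.49. Of the 3 measured erythroid markers, Alas2 was also highest in MHC-Plin5 1 (10.38) and lowest in MHC-Plin5 2 (8.38), and Slc4a1 likewise (7.80 and 6.31). The dim Epb42 was not, with 5.03, 4.90, 4.88 and 5.08 in the MHC-Plin5 hearts. The 3 measured erythroid markers, 0 of them called, summed to 20.85 to 22.48 in control and 19.59 to 23.21 in MHC-Plin5 hearts, and the part of blood cells in Slc25a37 was not tested. Slc25a28 varied little, with 8.60 to 8.71 against 8.64 to 8.83. Of 5 partner genes in haem and iron-sulfur synthesis 1 fell and 0 rose by limma, beside 1.17% and 2.08% of all genes. The faller was Alas1, which makes the first haem precursor (log2 difference -0.53, SE 0.11, limma adjusted p = 0.0316). Its call was lost when any 1 control, or MHC-Plin5 2 or 3, was left out.

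Slc25a30, an inner membrane relative of the uncoupling proteins, had log2 levels of 7.68, 7.82, 7.75 and 7.64 in the control hearts and 7.86, 8.03, 8.42 and 7.86 in the MHC-Plin5 hearts. The groups did not overlap, but the gap between control 2 and MHC-Plin5 1 was small, and the log2 difference of 0.32 was not called (SE 0.13, limma adjusted p = 0.234). Slc25a14 and Slc25a27 had 0.05 and -0.04. Of the carriers that belong to the same protein family under other symbols, 1 of 4 measured was called, beside 3.25% of all genes. Ucp3, the uncoupling protein of muscle, had 9.09, 9.28, 8.93 and 7.54 in the control hearts and 7.25, 7.29, 6.66 and 7.46 in the MHC-Plin5 hearts. Control 4 lay close to the MHC-Plin5 hearts, as it did for Slc25a20, and the log2 difference was -1.55 (SE 0.33, limma adjusted p = 0.0306). The same heart was the lowest control for Slc25a34, Slc25a42 and Cpt2. The call of Ucp3 was lost when control 1, 2 or 3 or MHC-Plin5 2 or 3 was left out. Ucp1 had -0.29 (adjusted p = 0.161) at a mean of 5.33, and Mtch1 and Mtch2 had 0.05 and -0.10. The adipocyte markers, of which Ucp1 is 1, summed to 42.92 to 47.42 in control and 41.32 to 43.60 in MHC-Plin5 hearts with 0 of 6 called, and their part in these values was not tested.

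The MHC-Plin5 hearts differed among themselves across the family. Of the 30 members with a difference below 0, MHC-Plin5 3 held the lowest MHC-Plin5 value in 15, and MHC-Plin5 4 held the highest in 15. Measured from the control mean, the median over all 46 members was -0.08 in MHC-Plin5 1, -0.08 in MHC-Plin5 2, -0.17 in MHC-Plin5 3 and -0.03 in MHC-Plin5 4. The control hearts ran from -0.04 in control 4 to 0.05 in control 2. The highest value of this median among the MHC-Plin5 hearts and among the controls thus fell on the arrays with the highest overall medians, and the part of the array level was not tested in these medians. With the array median as a covariate the 3 called members stayed called. Without MHC-Plin5 4, Slc25a42, Slc25a5 and Slc25a32 were called as well, which made 3 members higher and 3 lower. The share of all genes called in that run is not given here, so this count cannot be set against the shares of the main fit.

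**Figure D5:**
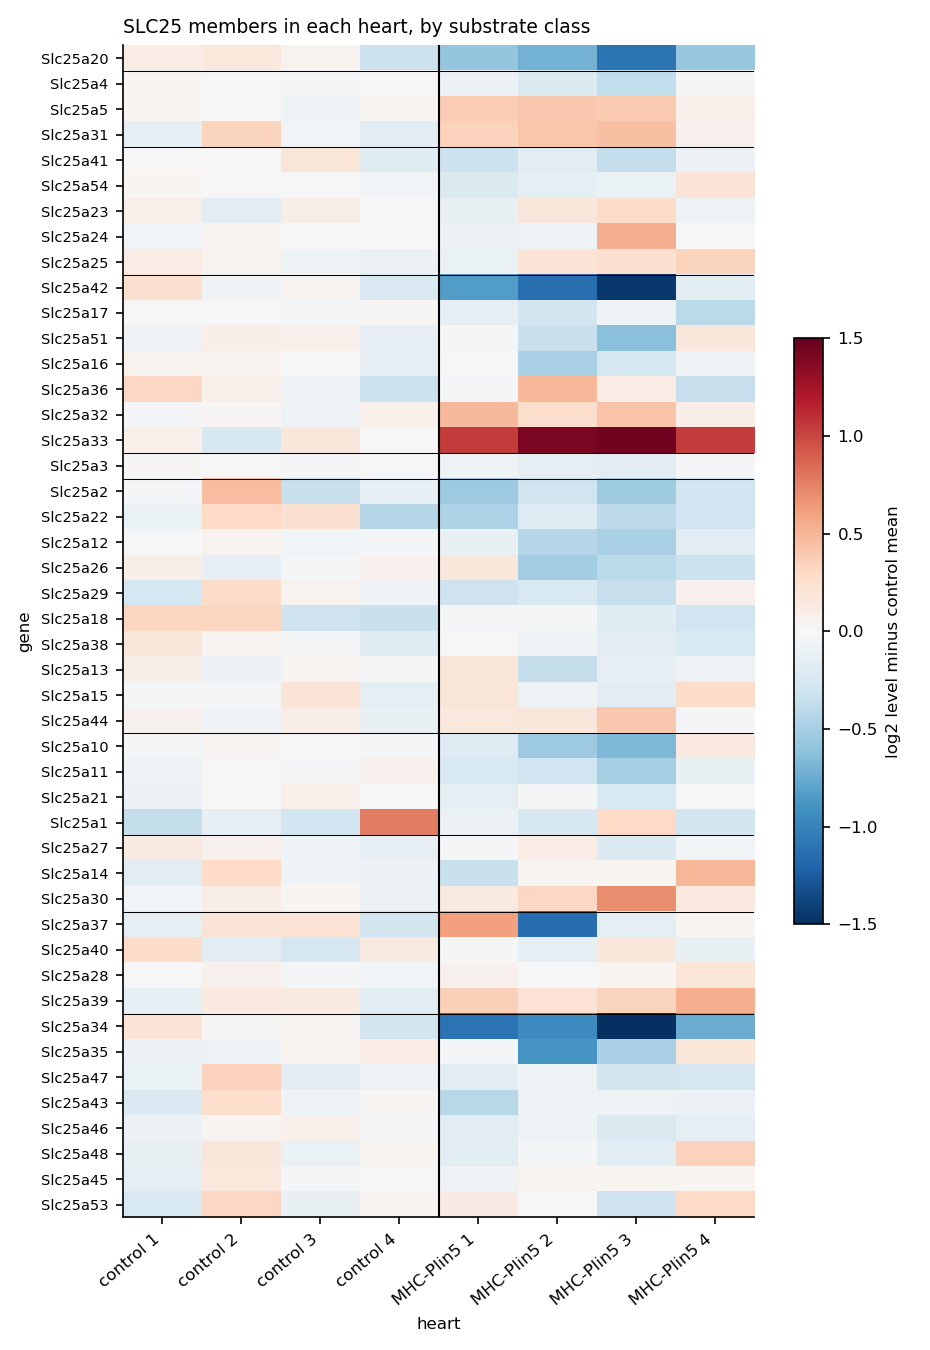
Log2 level of each SLC25 member (rows, ordered by substrate class with lines between classes) in each heart (columns), minus the mean of the 4 control hearts, on a colour scale from -1.5 (blue) to 1.5 (red). Slc25a33 is red and Slc25a20 and Slc25a34 are blue in all 4 MHC-Plin5 hearts, and Slc25a42 is pale in MHC-Plin5 4.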

How the data were processed

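The deposited log2 values are the authors' RMA output, for which the submitters' processing notes name Affymetrix Expression Console. Its version and summary level were not given in the sources used here. Of 35556 rows, 21789 carried exactly 1 gene symbol in GEO's platform annotation, and the highest-mean row of each symbol gave 19938 genes. All 46 members matched the RefSeq table of GRCm38.p6 by gene ID. The whole table was fitted with lmFit and eBayes of limma 3.58.1 in R 4.3.3 (genotype only, no trend, not robust, two-sided) and checked on simulated data. A 95% interval comes from that fit. Tables were handled in pandas 2.3.3 and plots drawn in matplotlib 3.10.9 (Python 3.11.15). Nothing says more about how hearts were drawn than 4 mice per group. A limma p-value sets a group difference against the spread between these hearts, which eBayes draws toward a value common to all genes. Scan dates and scanner files were not used here, and no batch was tested.

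Members, gene lists, pairs and motifs were chosen with earlier results of these data known. Values in every heart are given for called members, the main cardiac carriers and the 2 largest uncalled differences. They are also given for members without overlap whose log2 difference was at least 0.4 in size, and for some further members chosen after their values were seen. Of related genes the called ones and up to 4 others per list were named, and the Vdac channels and Mpc1 were added after their values were seen. Alternatives were other normalisations, filters at a mean of 5 or 7, variance models, array weights, row choices, the heart number as a block, the array median as a covariate and hearts left out.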

Additional observations from a re-analysis of the deposited data

Results flagged for a closer look

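In 4 of 92 groups of 4 hearts (46 members in each genotype) 1 heart stood far from the other 3, its gap to the nearest being over 0.829 of the group's range. Chance gives this in about 1 in 20 groups. Slc25a5 was 12.56 in MHC-Plin5 4, below 12.86 to 12.89 in the other MHC-Plin5 hearts. Slc25a24 was 7.90 in MHC-Plin5 3, above 7.28 to 7.37. Slc25a43 was 6.10 in MHC-Plin5 1, below 6.43 to 6.45. Slc25a10 was 8.14 in control 2, above 8.07 to 8.09, a gap of small size.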

How the results depend on the processing

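Slc25a33 and Slc25a34 were called in every alternative run. Slc25a20 was not called with every row of the table tested (adjusted p = 0.0714) or without control 2 and MHC-Plin5 4 together (0.0536). The number of members called higher was 1, and became 2 with median centring, 4 with array weights (also Slc25a5, Slc25a31 and Slc25a32) and 3 without control 2 and MHC-Plin5 4 (also Slc25a5 and Slc25a31). The number called lower was 2, and became 1 with every row tested and at an adjusted p under 0.01. With hearts left out singly, called members ranged from 1 to 3 in each direction. The shares of all genes called in these alternative runs are not given here. The counts therefore cannot be set against the shares of the main fit. Slc25a42 was called lower after quantile normalization (adjusted p = 0.0465), median centring (0.0491), a filter at a mean of 7 (0.0442), array weights (0.005) and without control 2 and MHC-Plin5 4 (0.0144). Among the partner genes, Ucp3, Bckdhb, Ppm1k and Alas1 were not called with every row tested (adjusted p from 0.0760 to 0.113), Ucp3 not with trend and robust variances (0.0716), Alas1 not after median centring (0.0538) and Bckdhb not with the array median as a covariate (0.0554). Without control 2 and MHC-Plin5 4 the adjusted p of Ucp3 was 0.0821. With the heart number as a block the called members were the same, 1 higher and 2 lower. Deviations from the group means correlated between same-numbered hearts at 0.187, 0.0254, -0.107 and -0.0403 for numbers 1 to 4. Only control 1 and MHC-Plin5 1 correlated best with their own number, so the numbers were not taken as pairs.

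Some uncalled members near 0 changed sign, and none of them was called on either side. Slc25a48 was 0.060 after quantile normalization, 0.037 with median centring and 0.068 with the array median as a covariate. Median centring gave Slc25a27 0.00017 and Slc25a40 0.021. Array weights gave Slc25a15 -0.021, Slc25a18 0.019 and Slc25a27 0.022, the mean over rows gave Slc25a36 -0.0036, and leaving out control 2 and MHC-Plin5 4 gave Slc25a15 -0.030 and Slc25a18 0.033. With hearts left out singly, the differences ranged from -0.20 to 0.18 in Slc25a1, -0.095 to 0.18 in Slc25a14, -0.023 to 0.13 in Slc25a15, -0.0076 to 0.12 in Slc25a23, -0.058 to 0.15 in Slc25a24, -0.090 to 0.013 in Slc25a27, -0.088 to 0.19 in Slc25a36 and -0.41 to 0.17 in Slc25a37. They ranged from -0.10 to 0.073 in Slc25a40, -0.038 to 0.063 in Slc25a45, -0.12 to 0.053 in Slc25a48, -0.062 to 0.14 in Slc25a53 and -0.49 to 0.075 for the pair Slc25a37 and Slc25a28. The cause of these changes was not tested.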
